A study of Mus musculus with 10 samples.

Results

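Genes of protein folding in the endoplasmic reticulum (ER) and of the unfolded protein response were followed in mouse lung. The 36 genes were taken as a named list and found in each read-count table through their Entrez identifiers. All 36 had a value in all 10 libraries and all passed the filter on low counts, out of 19204 genes with a value in any library and 14766 genes tested. They fall into an ATF6/XBP1 arm of 28 genes and an ATF4 arm of 8 genes. The first arm holds 16 lumenal folding genes, 8 genes of ER-associated degradation, and 4 genes for the stress sensors and Xbp1. Eif2ak3, which encodes the sensor upstream of ATF4, is counted in the first arm with the other sensors. The second arm holds 5 regulators and 3 enzymes of amino acid synthesis.

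The ER is where secreted and membrane proteins are folded, given their sugars and joined by disulfide bonds. When unfolded proteins build up there, 3 sensors in its membrane respond. ATF6 is cut to release a transcription factor, IRE1 (gene Ern1) splices the Xbp1 message, and PERK (gene Eif2ak3) phosphorylates eIF2 alpha, which slows translation while raising that of ATF4. ATF6 and XBP1 switch on chaperones and the degradation machinery, whereas ATF4 switches on amino acid synthesis, transport and stress genes and can be reached through other eIF2 alpha kinases as well. In lung, type 2 alveolar cells, club cells and plasma cells carry heavy secretory loads.

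Polyadenylated RNA from lung was sequenced in 3 libraries titled C, 4 titled Hy and 3 titled HE. The series title speaks of wild-type mice, of hypoxia-induced pulmonary hypertension, and of that condition with aerobic exercise. What C, Hy and HE stand for is not written out, so the groups carry those names here. The tissue label is lung, the genotype label is WT, and the treatment label is 1 identical phrase about exercise and hypoxia-induced pulmonary hypertension for all 10 libraries. The sources used here do not give strain, age, sex, oxygen level or exercise programme. They also do not say whether each library is a separate animal, so p-values measure the spread between these libraries, which may be technical.

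The libraries held 16560649 to 16634456 estimated counts in C and 16968236 to 17804039 in Hy and HE. Lung markers were present in every library, with Sftpc of type 2 cells from 6882 to 17431 CPM (counts scaled to the library size after TMM normalisation), Scgb1a1 of club cells from 20980 to 94227 CPM, and Ager of type 1 cells from 2920 to 5983 CPM. Tables of C listed values for 18713 genes and those of Hy and HE for 17956, with 17465 shared, so the set of genes with a value differed between C and the other groups. That difference, whose origin the labels do not give, cannot be told apart from the group in any comparison with C. The 6 neutrophil markers summed to 1515 CPM in Hy2 and 2566 CPM in Hy4, against 89.2 to 255 CPM in the other 8 libraries. The 6 cardiac muscle markers summed to 1428 CPM in C1, 2286 CPM in Hy4 and 1529 CPM in HE3, against 43.4 to 641 CPM elsewhere. Results were also computed without C1, Hy4 and HE3, called here the cardiac-rich libraries, and without Hy2 and Hy4, the neutrophil-rich libraries.

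Stretches of the promoters were read for response elements of the 2 arms. RefSeq windows on GRCm38.p6, from 250 bases before to 50 bases after the annotated start, were found for 32 of the 36 genes. They were searched on both strands for the ER stress response element (CCAAT, then 9 bases of any kind, then CCACG) and for its second form (ATTGG, then 1 base of any kind, then CCACG). The search also covered the unfolded protein response element, TGACGTGG, and the core of the amino acid response element, TGATGNAA. The first 2 patterns share the letters CCACG, and no window held both. The ER stress response element was found in 9 of the 32 windows (28.1%) against 0.137% of 27025 genes with a window. Its second form was in 2 windows (6.25%), those of Herpud1 and Dnajb11, against 0.0444% of genes. The amino acid response core was in 4 windows (12.5%), those of Asns, Chac1, Herpud1 and Trib3, against 4.51% of genes. TGACGTGG was in 0 windows of members and in 0.714% of genes. The members were listed as genes of this response, so these shares describe the list and are not a test.

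The 250 bases before the start are printed for 4 chaperone genes that hold the ER stress response element and that differ in the results below. Capitals mark the fixed letters of the element, which read ATTGG and CGTGG in reverse where it lies on the other strand. The windows lie at chr2:34771840-34772089 (plus strand) for Hspa5, chr10:86705445-86705694 (minus strand) for Hsp90b1, chr11:50325674-50325923 (minus strand) for Canx, and chr8:84846932-84847181 (minus strand) for Calr.
Hspa5: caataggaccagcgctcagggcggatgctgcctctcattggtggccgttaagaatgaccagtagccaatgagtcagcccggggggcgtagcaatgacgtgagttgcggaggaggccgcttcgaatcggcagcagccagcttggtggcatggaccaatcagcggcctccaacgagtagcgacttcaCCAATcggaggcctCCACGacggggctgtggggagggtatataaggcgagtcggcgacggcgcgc
Hsp90b1: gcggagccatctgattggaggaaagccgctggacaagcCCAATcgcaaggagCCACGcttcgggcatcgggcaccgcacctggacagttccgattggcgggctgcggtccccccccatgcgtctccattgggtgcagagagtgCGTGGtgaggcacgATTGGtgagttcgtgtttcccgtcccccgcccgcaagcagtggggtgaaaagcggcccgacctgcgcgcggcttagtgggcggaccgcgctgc
Canx: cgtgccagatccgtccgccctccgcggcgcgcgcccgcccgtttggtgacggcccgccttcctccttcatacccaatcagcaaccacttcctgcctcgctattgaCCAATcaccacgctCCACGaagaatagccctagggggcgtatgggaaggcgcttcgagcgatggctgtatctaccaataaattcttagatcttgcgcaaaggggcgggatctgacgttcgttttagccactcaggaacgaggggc
Calr: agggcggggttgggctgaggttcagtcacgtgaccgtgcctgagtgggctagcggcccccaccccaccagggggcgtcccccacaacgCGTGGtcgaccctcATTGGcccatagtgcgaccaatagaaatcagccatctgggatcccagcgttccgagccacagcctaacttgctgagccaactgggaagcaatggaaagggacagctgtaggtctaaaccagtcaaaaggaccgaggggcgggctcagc

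The same stretch is printed for 3 genes with the amino acid response core. They are Herpud1 (chr8:94386179-94386428, plus strand), Asns (chr6:7693210-7693459, minus strand) and Chac1 (chr2:119350992-119351241, plus strand). Herpud1 holds the second ER stress element as well. Capitals mark the fixed letters of the core, which read as the reverse complement where it lies on the other strand, and of that second element.
Herpud1: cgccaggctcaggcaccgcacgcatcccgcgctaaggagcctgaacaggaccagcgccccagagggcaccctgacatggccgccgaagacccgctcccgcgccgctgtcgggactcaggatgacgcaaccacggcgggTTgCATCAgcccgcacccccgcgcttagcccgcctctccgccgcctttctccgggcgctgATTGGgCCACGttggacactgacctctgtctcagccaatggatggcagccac
Asns: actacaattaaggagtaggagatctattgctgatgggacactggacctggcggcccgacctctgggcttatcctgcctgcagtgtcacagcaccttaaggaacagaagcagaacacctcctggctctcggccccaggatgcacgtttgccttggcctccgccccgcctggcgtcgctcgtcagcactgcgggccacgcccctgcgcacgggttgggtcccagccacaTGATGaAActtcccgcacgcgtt
Chac1: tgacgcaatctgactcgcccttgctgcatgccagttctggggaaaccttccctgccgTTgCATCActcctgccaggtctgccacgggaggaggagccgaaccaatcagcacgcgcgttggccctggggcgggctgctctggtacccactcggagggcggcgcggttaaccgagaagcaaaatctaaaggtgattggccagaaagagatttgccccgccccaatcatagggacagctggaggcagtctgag

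The ER stress element lay 65 to 47 bases before the start of Hspa5 and 145 to 127 bases before that of Canx, on the gene's own strand in both. Hsp90b1 held 2 copies, on opposite strands. The amino acid core of Asns lay 23 to 16 bases before its start. These matches describe letters in a window and are not measured binding.

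**Figure D1:**
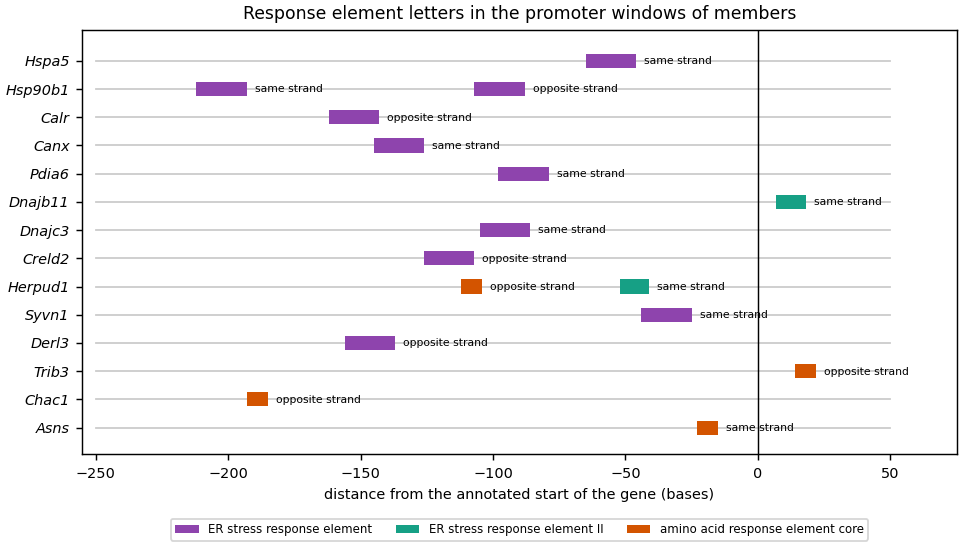
Distance of each matched element from the annotated start (x axis, bases) in the promoter windows of the 14 members that held one. Purple bars are the ER stress response element, green its second form and orange the amino acid response core, with the strand relative to the gene written beside each. The ER stress element lay upstream of the start in all 9 members that held it.

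The comparison of Hy with C addresses hypoxic against control lung, if the prefixes follow the series title. TMM, the trimmed mean of M values, sets the scale of all CPM given here, and a gene was called when its Benjamini-Hochberg adjusted p over all 14766 genes in edgeR's quasi-likelihood test was below 0.05. In the ATF6/XBP1 arm, 9 of 28 genes, Eif2ak3 among them, fell in Hy, 0 rose and 19 did not pass. Of all genes tested, 26.1% were called, 11% lower and 15.1% higher. The median log2 fold change of the arm was -0.46, and 26 of 28 values lay below 0. Over all genes the median was 0.03, with 47.9% below 0. At an unadjusted p below 0.05 there were 17 of 28, against 40.3% of all genes. In the ATF4 arm, 3 of 8 genes fell, 1 rose and 4 did not pass. In bulk tissue, fewer cells of a type and less RNA per cell cannot be told apart.

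With the replicate number as a block, 3 genes of the ATF6/XBP1 arm and 2 of the ATF4 arm stayed lower and 0 were higher. Those lower were Canx, Pdia3, Dnajb9, Asns and Chac1, beside 4.29% of all genes. The same-numbered C and Hy libraries deviated together across genes (correlations of 0.12, 0.25 and 0.13), although the labels state no pairing. Some libraries with other numbers did so more, C1 with Hy4 at 0.45 and C2 with Hy3 at 0.27. With DESeq2, 15 of the 28 were lower and 1 higher, beside 2155 lower (14.6%) and 2627 higher of 14766 genes. Without the 3 cardiac-rich libraries 0 of the 28 passed, in a fit that called 360 genes in all. Without the 2 neutrophil-rich libraries 4 were lower, namely Canx, Pdia3, Dnajb9 and Herpud1, in a fit that called 1070 genes in all.

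**Figure D2:**
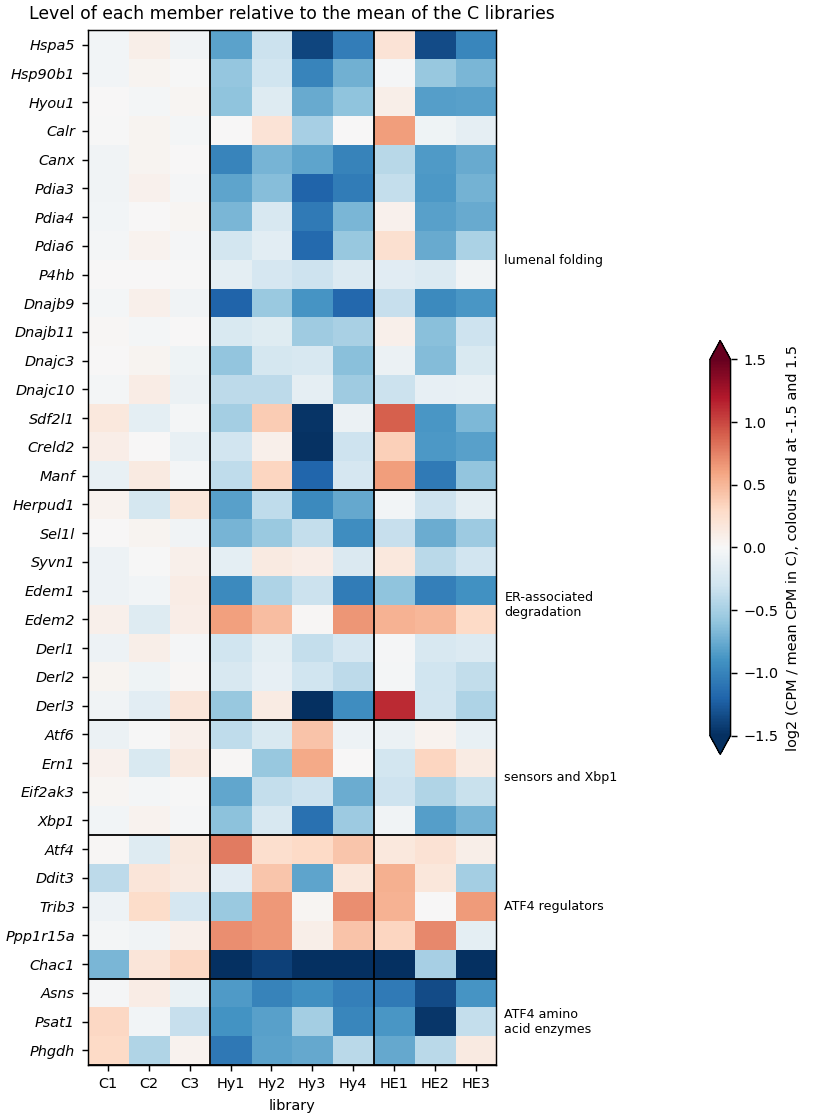
Level of each of the 36 members (rows, in 5 lists) in each library (columns) as log2 of CPM over the mean CPM of the C libraries, blue below and red above. Most of the ATF6/XBP1 arm is blue in all 4 Hy libraries and in HE2 and HE3, while HE1 is close to C or above it for many lumenal genes.

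Among the lumenal folding genes, 5 of 16 fell, all 16 log2 fold changes were below 0, and the median was -0.46. For 12 of the 16 every Hy library lay below every C library, as it did for 16.2% of all genes. Canx encodes calnexin, the membrane-bound lectin chaperone that holds glycoproteins during folding. Its level was 325, 347 and 337 CPM in C1 to C3 and 169, 207, 194 and 168 CPM in Hy1 to Hy4. The 2 groups did not overlap, and the Hy libraries lay close together. Canx fell by 45.1% (log2 fold change -0.87 ± 0.14 SE, adjusted p = 0.00281). Without the cardiac-rich libraries its adjusted p was 0.0614.

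Pdia3, the disulfide isomerase that works with calnexin and calreticulin, was at 640, 699 and 660 CPM in C. It was at 387, 429, 290 and 322 CPM in Hy1 to Hy4. Every Hy library was below every C library, with Hy3 the lowest. Pdia3 fell by 46.4% (log2 fold change -0.90 ± 0.17 SE, adjusted p = 0.00575, or 0.087 without the cardiac-rich libraries). Dnajb9, a J-domain helper of BiP, was at 99.8, 108 and 98.1 CPM in C and at 44.3, 69.3, 55.3 and 45.0 CPM in Hy. It fell by 47.5% (log2 fold change -0.93 ± 0.19 SE, adjusted p = 0.00769, or 0.0954 without those 3 libraries).

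Hspa5 encodes BiP, the main chaperone of the ER lumen and the protein that holds the sensors inactive. Its level was 722, 795 and 718 CPM in C and 427, 596, 286 and 364 CPM in Hy. All Hy libraries lay below all C libraries, and the Hy libraries spread widely, from Hy3 to Hy2. Its log2 fold change of -0.83 ± 0.35 SE did not pass (adjusted p = 0.1). It passed in 3 of the 19 alternatives that gave it a value, with an adjusted p of 0.0328 when HE1 was left out of the shared estimate of spread.

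Hsp90b1, the HSP90 of the ER, was at 707, 744 and 724 CPM in C and at 483, 591, 366 and 439 CPM in Hy. The groups did not overlap. It fell by 35.2% (log2 fold change -0.63 ± 0.20 SE, adjusted p = 0.0416). With the block its adjusted p was 0.0931, and leaving out any of the C libraries, Hy1, Hy4 or HE2 also lost the call (adjusted p = 0.0532 to 0.114). Dnajc10, a J-domain protein with reductase activity, had an adjusted p of 0.0498 at a log2 fold change of -0.35 ± 0.12 SE. Its call was lost in 16 of 20 alternatives, with 0.155 under the block, so it sits at the threshold.

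Calr encodes calreticulin, the lumenal partner of calnexin. It was at 605, 623 and 594 CPM in C and at 608, 699, 430 and 611 CPM in Hy. Hy1 and Hy4 lay within the C range, Hy2 above it and Hy3 below it. The log2 fold change was -0.05 ± 0.21 SE (adjusted p = 0.883), and it was 0.065 without Hy3. The difference between Calr and Canx was not tested.

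Sdf2l1, Creld2 and Manf, small ER proteins that are strongly induced by ER stress in cultured cells, shared a pattern. Creld2 was at 51.1, 47.5 and 43.9 CPM in C and at 38.9, 50.1, 17.0 and 38.2 CPM in Hy. Manf was at 126, 149 and 134 CPM in C and at 105, 170, 59.6 and 114 CPM in Hy. In both, Hy3 was by far the lowest and Hy2 reached the C range or passed it. Their log2 fold changes were -0.28 for Sdf2l1, -0.40 for Creld2 and -0.28 for Manf (adjusted p = 0.694, 0.439 and 0.634).

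The other lumenal genes did not pass. They were Hyou1, the nucleotide exchange factor of BiP (log2 fold change -0.52), the isomerases Pdia4 (-0.64), Pdia6 (-0.49) and P4hb (-0.23), and the J-domain proteins Dnajb11 (-0.35) and Dnajc3 (-0.42). Their adjusted p-values ran from 0.0658 to 0.193. In all 6, every Hy library lay below every C library. P4hb, which also serves collagen prolyl hydroxylation, varied little, at 521 to 524 CPM in C and 421 to 472 CPM in Hy.

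**Figure D3:**
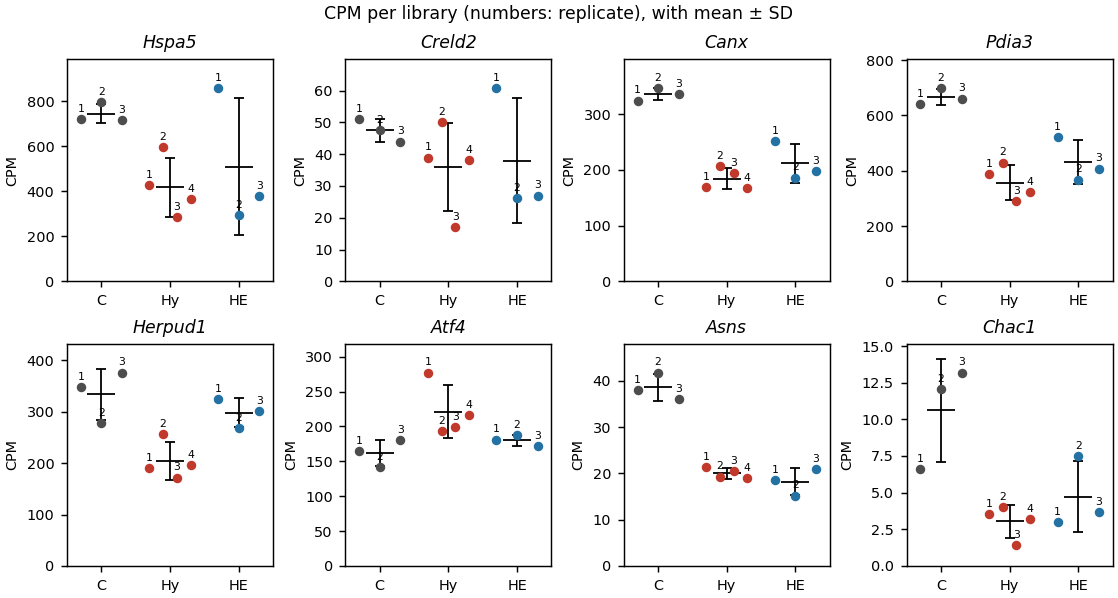
TMM-scaled CPM (y axis, from 0) of 8 members in each library of C, Hy and HE (points, numbered by replicate), with mean ± SD (black). Canx, Pdia3 and Asns separate C from Hy and HE, while the HE1 points of Hspa5 and Creld2 lie above all C points and the other HE points lie below them.

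In ER-associated degradation, 3 of 8 genes fell and 5 did not pass. Herpud1 builds the membrane complex that moves misfolded proteins out of the ER. It was at 347, 278 and 376 CPM in C and at 190, 257, 172 and 196 CPM in Hy, without overlap. It fell by 39.0% (log2 fold change -0.71 ± 0.16 SE, adjusted p = 0.0129), and the call was lost under the block (0.0707), without C3 (0.0616) and without the cardiac-rich libraries (0.147). Sel1l, the scaffold of the HRD1 ubiquitin ligase, was at 214 to 228 CPM in C and at 136, 151, 173 and 117 CPM in Hy. It fell by 35.0% (adjusted p = 0.0144), and passed neither under the block (0.0639) nor without C2 (0.0562).

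Edem1 marks glycoproteins for degradation by trimming mannose. It was at 79.6, 81.6 and 91.0 CPM in C and at 43.4, 61.0, 67.3 and 40.5 CPM in Hy, without overlap. It fell by 36.9% (log2 fold change -0.66 ± 0.19 SE, adjusted p = 0.0269), with 0.0914 under the block and 0.0549 to 0.0973 without any of C1, C2, C3, Hy1 or Hy4. Its relative Edem2, which acts earlier in the same trimming, was at 52.5, 43.4 and 53.1 CPM in C and at 76.2, 68.7, 50.4 and 78.8 CPM in Hy. Edem2 lay higher in 3 of 4 Hy libraries, and its log2 fold change of 0.46 ± 0.16 SE did not pass (adjusted p = 0.0559). It passed with DESeq2 (0.0358) and without Hy3 (0.00337).

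Syvn1, the HRD1 ligase itself, was at 93.4 to 104 CPM in C and 84.5 to 108 CPM in Hy (log2 fold change -0.03). The derlins are membrane proteins of the export channel. Derl1 and Derl2 had log2 fold changes of -0.26 each (adjusted p = 0.0807 and 0.113), with Hy below C in all libraries. Derl3 is a low-abundance gene, at 2.39 to 3.01 CPM in C and 0.749 to 2.89 CPM in Hy (log2 fold change -0.63, adjusted p = 0.356).

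Of the sensors, Eif2ak3 fell. PERK's gene was at 46.3, 44.4 and 44.9 CPM in C and at 26.3, 35.4, 36.5 and 27.0 CPM in Hy, without overlap. It fell by 30.8% (log2 fold change -0.53 ± 0.14 SE, adjusted p = 0.0188), with 0.0754 under the block and 0.0597 to 0.0624 without any single C library. Atf6 was at 79.8 to 89.3 CPM in C and 64.9 to 114 CPM in Hy, and Ern1 was at 18.1 to 23.2 CPM in C and 14.3 to 31.3 CPM in Hy. In both, Hy3 was the highest library of all. Xbp1 was at 276, 296 and 282 CPM in C and at 187, 242, 131 and 195 CPM in Hy. All Hy libraries were lower than all C libraries, but its log2 fold change of -0.59 ± 0.22 SE did not pass (adjusted p = 0.0741). Splicing of Xbp1 and cleavage of ATF6, the steps that activate these factors, cannot be read from gene counts.

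The members with the ER stress element were set beside the rest of the arm. Of the 9 that hold it, 2 fell (Canx and Hsp90b1), with a median log2 fold change of -0.49 and a range of -0.87 to -0.03. Of the 15 ATF6/XBP1 arm members with a window but without this first form, 7 fell (Eif2ak3 and Herpud1 among them), and the median was -0.53. The 15 include Herpud1 and Dnajb11, which hold the second form. Only exact matches inside the windows were counted, and the difference between the sets was not tested.

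In the ATF4 arm 3 of 8 genes were called lower and 1 higher, beside 11% lower and 15.1% higher of all genes. Atf4 encodes the transcription factor of the arm, whose protein is controlled mainly by translation. Its message was at 164, 142 and 180 CPM in C and at 277, 193, 199 and 216 CPM in Hy. All 4 Hy libraries were above all C libraries, with Hy1 the highest. Atf4 rose by 36.5% (log2 fold change 0.45 ± 0.15 SE, adjusted p = 0.048). The call was lost in 15 of 20 alternatives, among them the block (0.112) and the removal of any library except Hy2 or Hy3 (0.0665 to 0.177).

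Asns, which makes asparagine from aspartate, was at 38.0, 41.8 and 36 CPM in C and at 21.4, 19.3, 20.4 and 18.9 CPM in Hy. The 4 Hy libraries lay in a narrow band, and all were below the lowest C library. Asns fell by 48.1% (log2 fold change -0.95 ± 0.13 SE, adjusted p = 0.00154). Among the 36 members it was the 1 gene called in all 20 alternatives (adjusted p = 7.38e-10 to 0.0347).

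Psat1 and Phgdh catalyse steps of serine synthesis from a glycolytic intermediate. Psat1 was at 23.6, 18.5 and 14.9 CPM in C and at 10.2, 10.8, 13.4 and 9.63 CPM in Hy. It fell by 42.2% (log2 fold change -0.79 ± 0.25 SE, adjusted p = 0.0434), and the call was lost in 10 of 20 alternatives, with 0.117 under the block and 0.0582 to 0.159 without any of C1, C2, C3, Hy1, Hy2, Hy4 or HE1. Phgdh was at 15.3, 9.15 and 13.0 CPM in C and at 5.91, 7.13, 7.30 and 9.39 CPM in Hy. Hy4 lay above C2, so the groups overlapped, and the log2 fold change of -0.74 ± 0.26 SE did not pass (adjusted p = 0.0559). It passed with DESeq2 (0.0282) and without HE3 (0.0473).

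Chac1 degrades glutathione and is a target of ATF4. It was at 6.58, 12.1 and 13.2 CPM in C, from 118, 207 and 232 estimated counts. In Hy it was at 3.52, 4.01, 1.44 and 3.21 CPM, from 23 to 68 estimated counts. No library of Hy reached the lowest C library, C1. Chac1 fell by 71.2% (log2 fold change -1.80 ± 0.41 SE, adjusted p = 0.0128). The call was lost without C3 (0.0555), without the cardiac-rich libraries (0.0723) and without the neutrophil-rich ones (0.0592).

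Ppp1r15a, the eIF2 alpha phosphatase subunit GADD34, was at 70.4, 69.2 and 75.7 CPM in C and at 116, 113, 76.3 and 96.8 CPM in Hy. The groups did not overlap, with Hy3 close to C. Its log2 fold change of 0.49 ± 0.20 SE did not pass (adjusted p = 0.1), and it passed without Hy3 (0.0329). Ddit3, the factor CHOP, was at 28.4 to 42.4 CPM in C and 21.5 to 49.6 CPM in Hy (log2 fold change -0.03, adjusted p = 0.955). Trib3, a pseudokinase induced with CHOP, was at 11.2 to 16.1 CPM in C and 9.08 to 21.6 CPM in Hy (log2 fold change 0.29, adjusted p = 0.491), and its log2 fold change was -0.25 without the neutrophil-rich libraries. Ddit3 overlaps the genes Mars1 and Mbd6, and the library protocol says nothing on strand. Reads from a stretch shared by overlapping genes may then not be told apart. The spans of Hspa5, Pdia3, Pdia6, Syvn1, Derl2, Atf6 and Ppp1r15a also overlap a gene with a value. Overlap was read from whole gene spans on either strand, and exons were not compared.

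**Figure D4:**
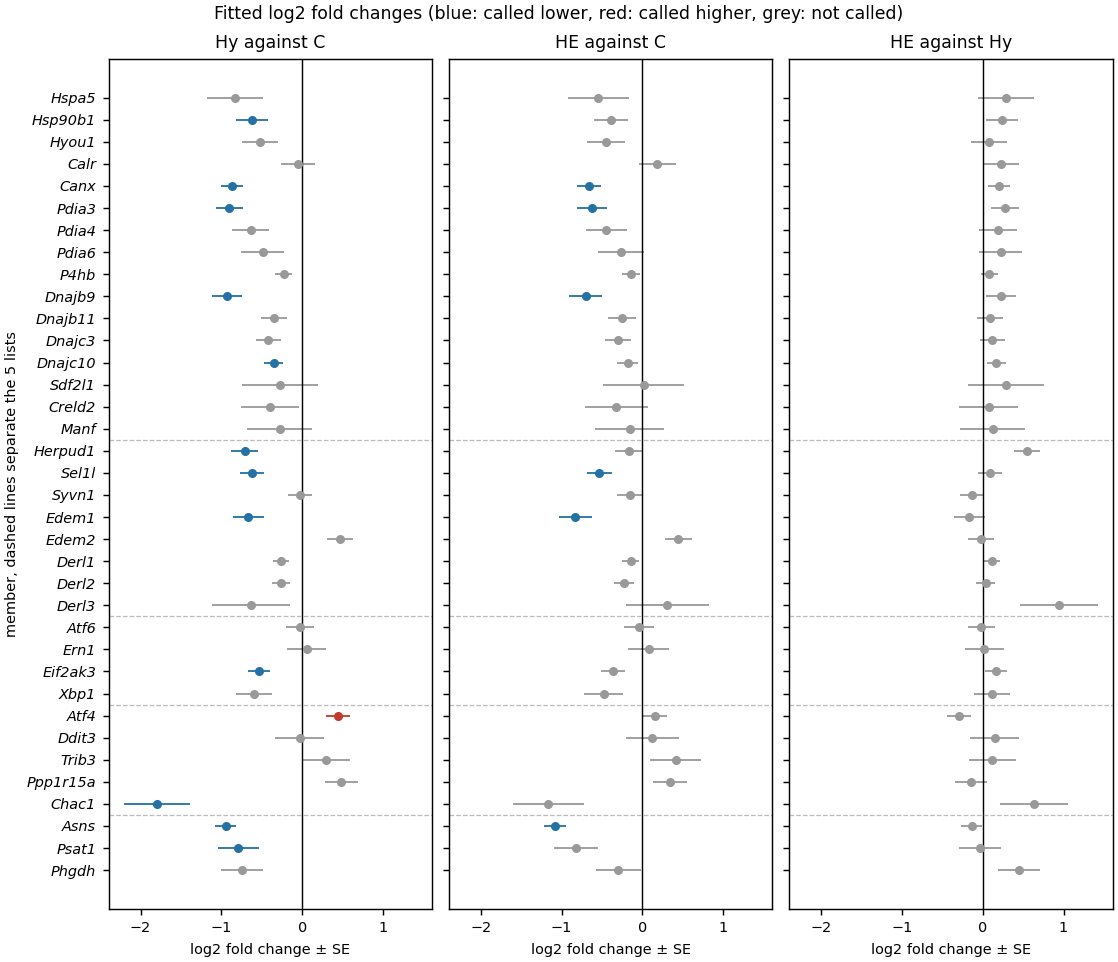
Fitted log2 fold change ± SE (x axis) of the 36 members (y axis) in 3 comparisons, with genes called lower in blue, called higher in red and not called in grey. Hy against C holds 12 blue points and 1 red, HE against C holds 6 blue points, and HE against Hy holds grey points alone.

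HE was compared with C next. It shares the 3 C libraries with the comparison above, so the 2 are not independent. In the ATF6/XBP1 arm, 5 of 28 genes fell (Canx, Pdia3, Dnajb9, Sel1l and Edem1), 0 rose and 23 did not pass. Of all genes tested, 20.4% were called, 8.66% lower and 11.7% higher. The median log2 fold change of the arm was -0.26, beside 0.02 over all genes, and 23 of 28 values lay below 0, against 48.6% of all genes. For 10 of the 28 every HE library lay below every C library, as it did for 25% of all genes. In the ATF4 arm Asns fell and 7 did not pass.

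Asns was at 18.5, 15.2 and 20.9 CPM in HE, all below the lowest C library at 36 CPM. It fell by 52.8% (log2 fold change -1.08 ± 0.14 SE, adjusted p = 0.00165) and was called in all 20 alternatives (up to 0.0275). Canx was at 252, 186 and 198 CPM in HE and fell by 36.9% (adjusted p = 0.0139), with 0.0531 to 0.0621 without C2, C3 or HE2. Edem1, at 55.5, 41.4 and 45.0 CPM in HE, fell by 43.7% (adjusted p = 0.0195), with 0.0567 to 0.0817 without C2, C3, HE2 or HE3. None of these HE libraries reached the C range.

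Pdia3 was at 521, 368 and 407 CPM in HE, and Dnajb9 at 79.9, 52.3 and 55.6 CPM. Their log2 fold changes were -0.62 and -0.70 (adjusted p = 0.0371 and 0.0359). For Pdia3 and Dnajb9 leaving out any C library, HE2 or HE3 lost the call (0.081 to 0.135). Sel1l, at a log2 fold change of -0.53 (adjusted p = 0.04), lost its call without any of C1, C2, C3, Hy2, HE1, HE2 or HE3 (0.052 to 0.144). Without C2, without C3 or without HE2, 0 of the 28 genes of the arm passed, and 1 passed without HE3 and 2 without C1. Those fits called 1014 to 1889 genes in all, against 3013 with all libraries.

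The HE libraries did not move together. Hspa5 was at 859 CPM in HE1, above every C library, and at 294 CPM in HE2 and 377 CPM in HE3, below every C library. Manf was at 211 CPM in HE1 and at 65.5 and 90.2 CPM in HE2 and HE3, and Creld2 at 60.8, 26.2 and 27.0 CPM. HE1 was the highest HE library for 14 of the 16 lumenal genes and for all 8 genes of ER-associated degradation, whereas it was highest for 32.9% of all genes. HE2 was the lowest for 13 of the 16 (33.8% of all genes). HE1 lay above all C libraries for 9 lumenal genes and below all of them for 6, among them Canx, Pdia3 and Dnajb9. HE2 and HE3 lay below all C libraries for all 16.

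The medians of the lumenal list put numbers on this split. Relative to the mean of C, the median log2 level was 0.07 in HE1, -0.82 in HE2 and -0.68 in HE3. It was -0.55, -0.25, -0.93 and -0.59 in Hy1 to Hy4. HE1 lay just above the C libraries, which ran from -0.03 to 0.04, and Hy2 was the nearest to C among the Hy libraries. Hy2 was the highest Hy library for 13 of the 16 genes (16.2% of all genes) and Hy3 the lowest for 12 (35.8% of all genes).

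Each library was left out in turn, and the fit without HE1 is given because HE1 stood out in these same genes. Its values describe the split and do not test it, and HE2 and HE3 alone remained in HE. Without HE1, 7 of 28 genes of the arm were lower in HE than in C, against 3.81% of all genes. The median log2 fold change of the arm was then -0.54. The 7 were Canx, Pdia3, Dnajb9, Edem1, Hspa5, Hyou1 and Pdia4. For Hspa5 the log2 fold change was -0.55 with all libraries (adjusted p = 0.32) and -1.15 without HE1 (adjusted p = 0.0406). The split did not run through the ATF4 arm in the same way, where HE1 was the highest HE library for 1 of 8 genes and HE3 for 4. The median of the 3 amino acid enzymes was -0.87, -1.34 and -0.36 in HE1 to HE3 and -0.77 to -0.98 in the Hy libraries, all below C.

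**Figure D5:**
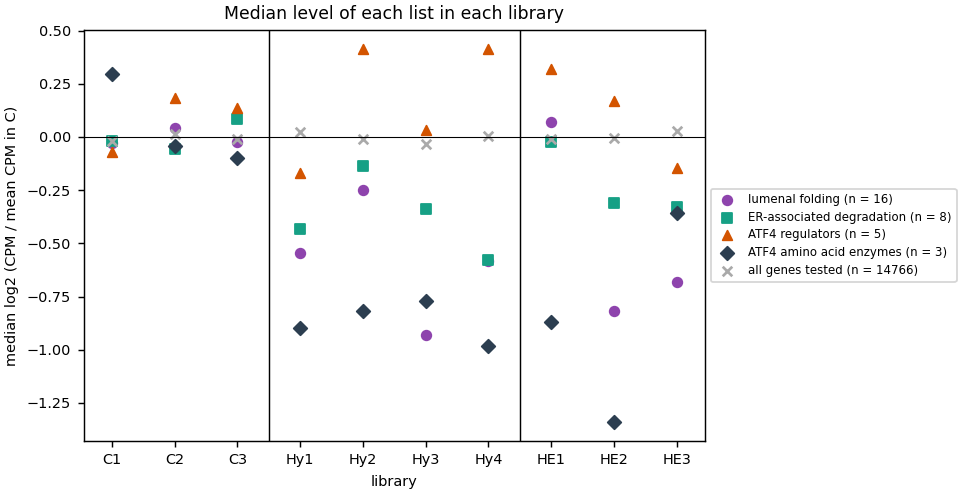
Median over each list of log2 CPM relative to the mean of C (y axis) in each library (x axis), with all 14766 genes as grey crosses near 0. The lumenal median was 0.07 in HE1 and -0.82 and -0.68 in HE2 and HE3, while the amino acid enzymes were below -0.35 in all 7 Hy and HE libraries.

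The spread between libraries also differed by arm. The median coefficient of variation of the 16 lumenal genes was 3.51% in C, 19.6% in Hy and 28.7% in HE. Over all genes it was 10.5%, 22.2% and 12.4%. The median lumenal gene was thus more even than the median of all genes in C and more spread than it in HE. The genes were not matched on level, and the lumenal means in C ran from 20.5 to 745 CPM. Among the lumenal genes P4hb was the most even in C, with a coefficient of 0.311%, and Sdf2l1 the most spread in HE, with 72.7%. Each of these values rests on 3 libraries. For the ATF4 arm the medians were 19.8%, 18.8% and 30.6%. These differences in spread were not tested.

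Cytosolic heat shock genes were read beside these libraries. The 14 genes summed to 9451 to 11730 CPM in C and to 5160, 7477, 5532 and 3784 CPM in Hy1 to Hy4, with Hy2 the highest and Hy4 the lowest. In HE they summed to 9447 CPM in HE1 and to 3754 and 3413 CPM in HE2 and HE3. Of these 14 genes 7 fell in Hy and 6 in HE against C, beside 11% and 8.66% of all genes. The 15 immediate early genes summed to 1442 to 1542 CPM in C, and 6 of them rose in Hy (15.1% of all genes). They summed to 3069, 2552, 2858 and 2878 CPM in Hy1 to Hy4 and to 2351, 2951 and 1695 CPM in HE1 to HE3. Their order among the libraries differed from that of the lumenal genes, with Hy2 the lowest in Hy and HE2 the highest in HE. The part of heat shock or immediate early responses in the ER results was not tested.

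Cell markers were read beside them. Plasma cells have an expanded ER, and their 5 markers with a value summed to 207 to 285 CPM in C, 185 to 260 CPM in Hy and 216 to 256 CPM in HE, with 0 of 4 tested genes called. Most of that sum was Sdc1, which epithelial cells also express, at 174 to 230 CPM. Jchain was at 4.18 to 53.8 CPM and Mzb1 at 1.5 to 5.55 CPM. The 6 club cell markers summed to 30690 to 35000 CPM in C, 22790 (Hy3) to 100500 CPM in Hy and 38340 to 57850 CPM in HE. The 7 type 2 cell markers summed to 23030 to 27410 CPM in C, 14360 to 27980 CPM in Hy and 19000 to 27270 CPM in HE. Scgb1a1 was most of the club cell sum, and Sftpc the largest part of the type 2 sum. Within the type 2 list Lamp3 was at 394 to 544 CPM in C and 123 to 413 CPM in Hy. Sftpb was at 4140 to 5021 CPM in C and 4698 to 8826 CPM in Hy. No gene of these 3 lists was called in edgeR, where 26.1% of all genes were called in Hy and 20.4% in HE against C. The part of cell makeup in the ER results was not tested.

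Fibroblast, smooth muscle and neutrophil markers did differ. The counts below stand beside the shares over all genes in Hy, 11% lower and 15.1% higher. The 6 fibroblast markers summed to 1715 to 2444 CPM in C, 1164 to 1763 CPM in Hy and 1123 to 1671 CPM in HE, and 2 of 6 fell in Hy. The 6 smooth muscle markers summed to 539 to 972 CPM in C and 1054 to 1989 CPM in Hy, and 4 rose. Of the 6 neutrophil markers 5 rose in Hy. Among the 7 capillary markers 2 fell in Hy, and among the 6 type 1 markers 1 fell and 2 rose. No ciliated, alveolar macrophage, cardiac or adipocyte marker was called, and 5 of 6 adipocyte markers were at 0 in at least 1 library. The adipocyte markers summed to 212 CPM in C1 and 187 CPM in HE3, against 4.89 to 34.55 CPM in the other libraries. Leaving out the cardiac-rich libraries thus also left out those highest in adipocyte markers.

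HE against Hy sets against each other groups with values for the same genes and addresses what exercise adds, if the prefixes are read so. In edgeR 0 of the 36 members and 0 of 14766 genes (0%) were called. At an unadjusted p below 0.05 there were 734 genes (4.97%), of which 1 was a member. DESeq2 called 48 genes in this comparison and limma-voom called 0. The count does not show that the groups are alike. The 16 lumenal log2 fold changes were all above 0, with a median of 0.20, while 52.1% of all genes were below 0. Without HE1, 11 of the 16 were below 0 and the median was -0.08.

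The 1 member was Herpud1, at 325, 268 and 301 CPM in HE against 172 to 257 CPM in Hy. All 3 HE libraries lay above all 4 Hy libraries, as they did for 2.25% of all genes. The log2 fold change was 0.55 ± 0.16 SE (adjusted p = 0.739). HE1 and HE3 lay within the C range and HE2 just below it, with a log2 fold change against C of -0.16. Atf4 lay the other way, with HE at 181, 188 and 172 CPM, below all Hy libraries (log2 fold change -0.30 ± 0.15 SE). That order held for 2.26% of all genes. Of the 36 members 1 lay wholly above and 1 wholly below, about what those shares over all genes would give. For Hspa5 the log2 fold change was 0.29 ± 0.35 SE and turned to -0.32 without HE1. Those of Asns (-0.14 ± 0.13 SE), Canx (0.20 ± 0.14 SE) and Pdia3 (0.28 ± 0.17 SE) did not pass either.

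Other genes of the ER and ATF4 pathways were read by list, chosen with earlier results of these data known. Of 116 listed genes 113 were tested, and 27 fell and 13 rose in Hy against C (18 and 8 in HE against C). Beside them stand the shares over all genes, 11% lower and 15.1% higher in Hy and 8.66% lower and 11.7% higher in HE. The shorter lists hold 8 to 16 tested genes each, and their counts are descriptions to be read against these shares. Of the genes named from these lists, 7 of 16 in Hy against C kept their call with any 1 library left out (Tram1, Sec61g, Stt3b, Erp44, Lman1, Atf6b and Cebpb). In HE against C 4 of 14 did (Tram1, Sec61g, Cebpb and Mthfd2). The others lost it in at least 1 such fit, with adjusted p-values of up to 0.149. Among 16 genes of translocation into the ER and signal peptide removal 6 fell and 1 rose. Tram1, a translocon helper, was at 133 ± 7.82 CPM (SD, n = 3) in C, 75.8 ± 9.10 CPM (n = 4) in Hy and 73.4 ± 7.33 CPM (n = 3) in HE. It fell in Hy (log2 fold change -0.81, adjusted p = 0.00227) and in HE (-0.86, 0.00382). Sec61g, the small gamma subunit of the translocon, rose in both (1.12, adjusted p = 0.00694, and 1.23, adjusted p = 0.00795). Without the cardiac-rich libraries Tram1 in Hy and Sec61g in both missed the threshold (0.0537, 0.078 and 0.0725).

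Of 11 N-glycosylation genes 3 fell and 1 rose in Hy, led by Stt3b, a catalytic subunit of the oligosaccharyltransferase (log2 fold change -0.67, adjusted p = 0.00995), and Prkcsh, the glucosidase II beta subunit (0.51, adjusted p = 0.0167, or 0.0631 with the block). In HE against C, Stt3a fell (-0.60, adjusted p = 0.0193). Of 12 other folding enzymes 1 fell, Erp44, which retains proteins through thiols (-0.60, adjusted p = 0.00618), and 2 rose, led by the prolyl isomerase Fkbp2 (0.79, adjusted p = 0.0269, or 0.0789 with the block). Of 13 further degradation and export genes 5 fell and 0 rose in Hy, led by the cargo receptor Lman1 (-0.50, adjusted p = 0.00825). In HE against C the lectin Os9 rose (0.44, adjusted p = 0.0323).

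Of 11 tested stress regulators outside the member list 1 fell and 3 rose in Hy. Atf6b, the close relative of Atf6, was at 62.6 to 66.8 CPM in C, 81.7 to 117 CPM in Hy and 89.2 to 99.3 CPM in HE. It rose in Hy (log2 fold change 0.67, adjusted p = 0.00576) and in HE (0.57, adjusted p = 0.0176), whereas Atf6 itself did not pass in either. Rtcb, the ligase that joins spliced Xbp1, had -0.28 in Hy (adjusted p = 0.0462, or 0.154 with the block). Of 10 eIF2 genes 2 fell and 1 rose, led by the kinase Eif2ak1 (-0.34, adjusted p = 0.0338, or 0.121 with the block) and by Eif2b4 (0.51, adjusted p = 0.0321, or 0.107 with the block). In HE against C, Ppp1r15b, the constitutive partner of the eIF2 alpha phosphatase, fell (-0.62, adjusted p = 0.0238).

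Among known ATF4 targets, of 11 stress genes 3 rose and 0 fell in Hy. Cebpb, a transcription factor also raised by inflammatory signals, was at 55.0 to 87.3 CPM in C, 211 to 388 CPM in Hy and 197 to 404 CPM in HE. It rose in Hy (log2 fold change 2.07, adjusted p = 0.0022) and HE (1.92, adjusted p = 0.0048), in all 20 alternatives. Of 9 amino acid transporters 1 fell, Slc7a11, the cystine importer, at 4.83 to 8.20 CPM in C, 0.874 to 3.45 CPM in Hy and 0.909 to 1.38 CPM in HE. Its log2 fold changes were -1.89 (adjusted p = 0.0148, or 0.0582 without C1) and -2.44 (adjusted p = 0.0115, or 0.0538 without HE2).

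Of 8 further amino acid and one-carbon enzymes 3 fell and 2 rose in Hy. Mthfd2 of mitochondrial folate metabolism was at 7.67 to 10.4 CPM in C, 3.27 to 4.36 CPM in Hy and 1.33 to 3.20 CPM in HE. It fell in Hy (log2 fold change -1.20, adjusted p = 0.0159, or 0.076 with the block and 0.0699 without C2) and in HE (-1.76, adjusted p = 0.00718). Cbs, which makes cystathionine, rose in Hy (1.84, adjusted p = 0.0108, or 0.0514 without C3). Of 12 tested aminoacyl-tRNA synthetases and partners 5 fell and 0 rose in Hy, led by Eprs1 (-0.44, adjusted p = 0.0135), and 5 fell in HE, led by Iars1 (-0.80, adjusted p = 0.0123). The Eprs1 call was lost without C1 (0.0524) and without C3 (0.0536).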

How the data were processed

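Messenger RNA of lung was read in 10 libraries in 3 groups named after their titles. The deposited values are expected counts, that is estimates per gene without normalisation. Of a library's values 91.0% to 91.6% were whole in C and 93.3% to 93.6% in Hy and HE, a difference whose origin is not given. HISAT2 2.0.4, Bowtie2 2.2.5, DESeq 1.4.5 and RSEM 1.2.12 are listed, with GRCm38.p6 as the build, per the submitters' processing notes. What each tool did and which annotation was used is not given in the sources used here. Counts were rounded, genes with values in all libraries were filtered with filterByExpr, scaled with TMM and fitted in 1 model of 3 groups with robust quasi-likelihood in edgeR 4.0.16 (R 4.3.3), checked on simulated data. The fit had 7 residual degrees of freedom and a common biological coefficient of variation of 26.9%. Symbols, positions and promoter windows came from RefSeq on GRCm38.p6.

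The rule for named genes took all 36 members and, from each list of other pathway genes, the called gene with the smallest p in each direction. Members, lists and alternatives were chosen with earlier results of these data known. Alternatives were RLE factors, DESeq2 1.42.0, limma-voom (limma 3.58.1), other filters, only the groups compared, the replicate block, libraries left out, and genes that overlap no other gene. Same-numbered C and Hy libraries had correlations of deviations of 0.12, 0.25 and 0.13, all above the criterion of 0.1. They were treated as pairs in the replicate block alone, which is an alternative, while the main fit held no block. Some libraries with other numbers correlated more, C1 with Hy4 at 0.45 and C2 with Hy3 at 0.27. Same-numbered C and HE libraries gave -0.10, 0.19 and -0.26, and Hy and HE -0.04, 0.06 and -0.02. The block fits Hy4, whose number no other library shares, exactly.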

Additional observations from a re-analysis of the deposited data

How the results depend on the processing

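The 2 arms were recounted under 20 alternatives. For Hy against C, the 9 lower genes of the ATF6/XBP1 arm became 15 with DESeq2 (and 1 higher) and 3 with the replicate block. They became 4 without the neutrophil-rich libraries (Hy2 and Hy4) and 0 without the cardiac-rich ones (C1, Hy4 and HE3). Among genes that overlap no other gene, where fewer genes were tested, 5 were lower. That fit leaves out overlapping members, among them Pdia3, Edem1 and Eif2ak3, which were called in the main fit. Leaving out 1 library gave 4 to 12 lower and 0 to 1 higher. The 3 lower genes of the ATF4 arm became 1 without either set, and 1 to 4 with 1 library left out. The 1 higher gene, Atf4, became 0 with RLE factors, no filter, only the groups compared, the block, either set of libraries left out, and non-overlapping genes, and 0 to 2 with 1 library left out. All genes called, 3850, became 4782 with DESeq2, 1745 with the block, and 2072 among non-overlapping genes. They became 360 without the cardiac-rich and 1070 without the neutrophil-rich libraries, and 1681 to 5973 with 1 library left out.

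For HE against C, the 5 lower genes of the first arm became 2 with the block and 0 without the cardiac-rich libraries. They became 3 among non-overlapping genes, a fit that leaves out Pdia3 and Edem1, and 0 to 7 with 1 library left out. Higher genes became 1 with only the groups compared, and 0 to 1 with 1 library left out. The 1 lower gene of the ATF4 arm became 3 with DESeq2, 2 with limma-voom and 1 to 3 with 1 library left out. All genes called, 3013, became 5408 with only the groups compared, 498 without the cardiac-rich libraries, 1587 among non-overlapping genes, and 1014 to 4712 with 1 library left out. For HE against Hy, 0 genes became 48 with DESeq2, 1 without the neutrophil-rich libraries, and 0 to 6 with 1 library left out.

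Signs turned in small differences. In Hy against C, Syvn1 was 0.035 with the block, and without the neutrophil-rich libraries Atf6 was 0.062 and Trib3 -0.25. With 1 library left out, log2 fold changes ran from -0.14 to 0.065 for Calr, -0.24 to 0.069 for Atf6, -0.17 to 0.22 for Ern1, -0.21 to 0.15 for Ddit3 and -0.086 to 0.034 for Syvn1. In HE against Hy they ran from -0.32 to 0.56 for Hspa5, -0.49 to 0.59 for Sdf2l1, -0.53 to 0.42 for Manf and -0.44 to 0.28 for Creld2, each turning without HE1, and Manf (-0.10) and Creld2 (-0.16) also without Hy3. Among the named genes the block changed no other call in Hy against C than those given beside the results. Pairing by number was not uniform, since C1 correlated at 0.45 with Hy4, and the cause was not tested. The main fit held no block, and in the block fit the HE libraries were grouped by number as well. The calls rest on 3 or 4 libraries a group, and low-count members such as Chac1 (23 to 68 estimated counts in Hy) also carry counting error.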
